A study of Rattus norvegicus with 35 samples.

Results

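The genes described here are chemokines, cytokines, inducible inflammatory enzymes and a co-stimulatory ligand: Ccl2, Ccl3, Cxcl1, Cxcl2, Cxcl12, Il6, Il1b, Nos2, Ptgs2 and Cd80. All probe-sets of the array whose annotation held a single gene symbol from this list were taken, without regard to their values. Of the 10 genes, 8 were represented, by 16 of the 8740 probe-sets that were tested: Ccl2, Il6 and Ptgs2 by 2 probe-sets each, Il1b by 3, Nos2 by 4, and Ccl3, Cxcl2 and Cd80 by 1 each. Cxcl1 and Cxcl12 had no entry in the annotation and were dropped. Another 3 probe-sets, annotated to several genes of which Nos2 was one, were left out of the counts.

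Expression was measured on 35 Affymetrix RG-U34A arrays, 1 array per RNA sample, in primary cells from the ventricles of neonatal rat hearts. Pre-plating yielded cultures enriched for cardiomyocytes (CM) and cultures of fibroblasts, the latter subcultured in foetal bovine serum, whereas the CM-enriched cultures were kept in horse serum. Each population was exposed to cyclic mechanical stress (MS) on collagen-coated flexible plates, to ionising radiation (IR, 8.5 Gy of X-rays) or to ultraviolet light (UV, 10 J/m2 of UVC), and was collected after 24 h. Each of the 12 groups held 3 arrays, apart from the CM control group of the UV experiments, which held 2, so that the treated sample of its experiment 3 had no partner. Controls of MS were grown on identical plates outside the strain unit, those of IR were sham-irradiated, and those of UV were rinsed and handled like the exposed cells. After IR and UV the CM-enriched cultures, control and exposed, were passed through centrifugal elutriation and are called CM-enriched fractions. The fibroblasts and the MS cultures were not. In a comparison of the populations, population, serum and time in culture therefore cannot be told apart, and in the IR and UV experiments elutriation cannot either. In the IR experiments the arrays of the 2 populations that had a scan record were also scanned apart, so that scan cannot be told apart from population there. All of these are mixed primary cultures. By the study's flow cytometry of myosin, the CM-enriched cultures of MS held a smaller share of CM than the elutriated fractions. In such bulk RNA, fewer cells of a type and less RNA per cell cannot be told apart. The numbers in the sample titles mark 3 experiments per stressor that the study describes as independent; p-values measure the spread between these arrays.

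Chemokines such as CCL2 (monocyte chemoattractant protein), CCL3 (macrophage inflammatory protein) and CXCL2 (a neutrophil attractant) are secreted by stressed tissue cells and guide leukocytes to them. The cytokines IL-1 beta and IL-6 act on neighbouring cells, the former largely through NF-kB and the latter through STAT3, while the enzymes encoded by Nos2 (inducible nitric oxide synthase) and Ptgs2 (cyclooxygenase-2) make nitric oxide and prostaglandins. CD80 is a surface ligand by which antigen-presenting cells stimulate T cells. In the heart, CM, fibroblasts and resident macrophages can all be sources of these mediators, and many of their genes carry NF-kB and C/EBP sites near the transcription start.

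Promoter sequences were available for 5 of the 8 genes, in 6 windows (RefSeq annotation of the rat assembly GRCr8); Cd80 had 2 windows. The 250 bases before the start are shown for Il6, Cd80 and Ptgs2, whose transcripts changed after UV, and for Cxcl2, the other gene with an NF-kB match, each 5′ to 3′ on the strand of the gene. Capitals mark matches to the motifs searched on both strands: NF-kB, the AP-1 site TGANTCA, the cyclic AMP response element (CRE) TGACGTCA, the C/EBP site TTNNGNAA, and the core of the interferon-stimulated response element, GAAA followed by any 2 bases and GAAA. Positions count back from the base before the start, which is -1.
Il6, chr4:5894576-5894825, minus strand: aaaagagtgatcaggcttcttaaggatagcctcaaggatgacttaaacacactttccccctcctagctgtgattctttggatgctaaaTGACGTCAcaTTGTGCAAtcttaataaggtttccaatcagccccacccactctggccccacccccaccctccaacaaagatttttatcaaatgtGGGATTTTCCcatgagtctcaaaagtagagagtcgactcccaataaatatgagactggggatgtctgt
Cxcl2, chr14:17467256-17467505, minus strand: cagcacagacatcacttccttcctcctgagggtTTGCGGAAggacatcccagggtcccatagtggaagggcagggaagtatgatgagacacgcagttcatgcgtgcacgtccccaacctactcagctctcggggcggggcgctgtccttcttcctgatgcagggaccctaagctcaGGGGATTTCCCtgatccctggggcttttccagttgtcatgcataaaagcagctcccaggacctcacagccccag
Ptgs2, chr13:64713813-64714062, plus strand: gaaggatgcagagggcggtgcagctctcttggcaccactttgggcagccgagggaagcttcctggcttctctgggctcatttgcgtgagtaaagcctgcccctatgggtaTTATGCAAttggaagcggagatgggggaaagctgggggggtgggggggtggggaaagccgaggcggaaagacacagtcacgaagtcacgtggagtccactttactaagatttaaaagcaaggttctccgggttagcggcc
Cd80, chr11:75797257-75797506, minus strand, the more downstream of its windows: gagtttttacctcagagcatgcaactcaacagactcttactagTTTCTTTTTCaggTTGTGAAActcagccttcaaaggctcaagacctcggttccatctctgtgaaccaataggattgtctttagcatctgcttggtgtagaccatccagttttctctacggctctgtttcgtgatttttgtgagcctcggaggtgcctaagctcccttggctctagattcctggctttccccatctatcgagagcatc

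In the Il6 window the NF-kB match GGGATTTTCC lay at -68 to -59, with a CRE at -162 to -155 and a C/EBP match at -152 to -145. Cxcl2 held overlapping NF-kB matches, GGGGATTTCC from -74 and GGGATTTCCC from -73, and a C/EBP match from -217 to -210. The Ptgs2 window held only the C/EBP match TTATGCAA at -140 to -133 among these motifs. In the Cd80 window shown, the capitals are the interferon response core, read on the opposite strand at -207 to -198, and a C/EBP match at -194 to -187; the other Cd80 window held none. Among 33469 promoter windows of the same length (250 bases before and 50 after the start), 7.51% held an NF-kB match, 7.33% an AP-1 site, 1.83% a CRE, 41.3% a C/EBP match and 3.92% the interferon response core. These matches are a description of the letters and were not tested for binding.

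Levels are given as normalised intensity, an array-scaled fluorescence value without unit. The lowest values were set to a floor of 6.88, below which levels have no order, and 14.5% to 24.7% of the probe-sets of an array lay at it. Within groups, arrays correlated with Spearman coefficients of 0.922 to 0.979. The summed signal of 16 cardiomyocyte markers was 44166 to 78942 in the CM arrays and 3659 to 28847 in the fibroblast arrays. That of 13 fibroblast markers was 12938 to 42494 and 32867 to 45536, respectively. The cardiomyocyte sums thus separated the populations, the fibroblast sums overlapped, and each population held transcripts of the other. The members ranged from Ccl2, which was above the floor on all 35 arrays, to the Il6 probe-set M26745cds_s_at, which was at the floor on 32 of them.

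Before any treatment effect, 1 experiment of the fibroblasts stood apart. In experiment 3 of the fibroblast IR experiments, the sham-irradiated and the irradiated culture both lay above all 16 other fibroblast arrays in 15 of the 16 member probe-sets, covering 7 of the 8 genes, and in 13 of the 16 they lay more than 4-fold above. Among all probe-sets, both arrays were above the other fibroblast arrays in 6.37% and more than 4-fold above in 0.973%. This pattern was noticed in the values themselves and is given without a test.

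Nos2 showed the widest gap: U03699complete_seq_at read 1153 in the sham-irradiated and 1320 in the irradiated culture of experiment 3, against at most 18.1 in the other fibroblast arrays. Cxcl2 read 344 and 628, whereas all 16 other fibroblast arrays were at the floor, so the lower of the pair was at least 50.02-fold higher. For Il1b, the probe-set M98820_at read 721 and 806 against at most 25.3. Il6, measured by M26744_at, reached 954 and 1495 against at most 50.4, a maximum that itself came from a UV-exposed culture. The cyclooxygenase gene Ptgs2 (S67722_s_at) stood at 1565 and 1430 against at most 71.9, and Ccl3 at 512 and 559 against at most 29.3. Ccl2, already readily measured in all fibroblasts, read 6969 and 7185 against at most 1226 for X17053cds_s_at, and 5867 and 5505 against at most 2646 for X17053mRNA_s_at. The Nos2 probe-set U16359cds_at was only 1.20-fold above, and Cd80 was the exception, with 34.3 and 73.0 in experiment 3 against up to 186 elsewhere.

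**Figure D1:**
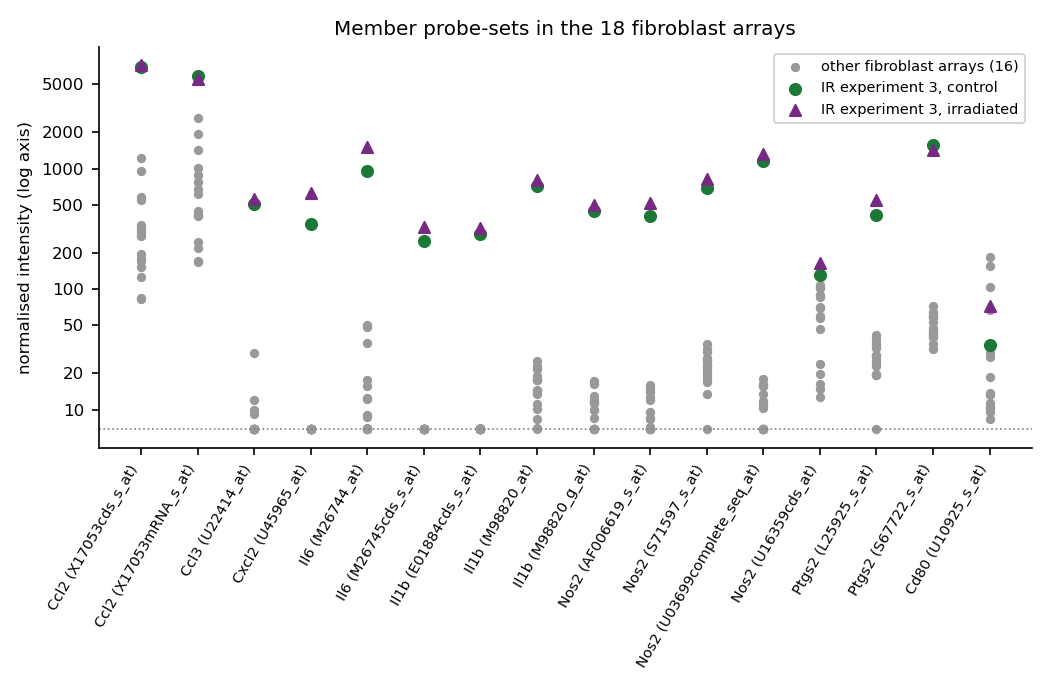
Normalised intensity (log axis) of member probe-sets on the 18 fibroblast arrays. The control and irradiated arrays of IR experiment 3 are marked, the other fibroblast arrays are grey, and a dotted line marks the floor of 6.88. Both arrays of IR experiment 3 lie above all other fibroblast arrays in 15 of 16 probe-sets, and Cd80 is the exception.

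A part of the related genes also stood apart in this pair of arrays. Of 138 genes on 7 lists of related pathways, 17 were more than 4-fold above all other fibroblast arrays in both, beside the 0.973% of all probe-sets: 5 of 21 chemokines and receptors, 3 of 27 cytokines, 5 of 13 co-stimulation and adhesion genes, 2 of 18 nitric oxide and arginine genes, 1 of 24 prostanoid genes, 1 of 13 NF-kB and Toll-like receptor genes and 0 of 22 cytokine receptors. Ccl5, a T-cell and monocyte attractant, read 3167 and 2473 where the others were at the floor, and Ccl20 read 3894 and 4060 against at most 34.2. Nfkbia, the NF-kB inhibitor that NF-kB itself induces, read 1555 and 1685 against at most 221, and the adhesion molecule Vcam1 3877 and 3964 against at most 217. Ass1, which recycles citrulline to arginine for nitric oxide synthesis, read 3346 and 2957 where the others were at the floor. The summed signal of the macrophage markers on the array (14 of 24 listed) was 617 and 572, within the 318 to 727 of the other fibroblast arrays. Among them the Fc receptor Fcgr2b read 119 and 79.6 against a mean of 12.6 in the other fibroblast arrays, Csf1r read 17.3 and 16.9 against a mean of 14.9, and Cd74 and Itgam were at the floor in this pair as in the other fibroblast IR arrays. The neutrophil markers on the array (4 of 9 listed) summed to 4085 and 4663, against at most 68.5 in the other fibroblast IR arrays. Nearly all of that signal was Lcn2 (4060 and 4639), and the defining neutrophil markers S100a8 and S100a9 were at the floor in both arrays. The endothelial markers (6 of 11 listed) summed to 247 and 184, above the 92.8 to 141 of the other fibroblast arrays. Of these the leukocyte adhesion molecule Sele read 131 and 52.7 against a mean of 7.44, whereas Pecam1 read 32.2 and 32.00 against a mean of 18.4 and Kdr 6.88 and 9.13 against 9.56. Since sham-irradiated and irradiated cells shared the profile, it was not a difference between treated and control, and what set this experiment apart was not tested. The counts of members called are given below with and without this experiment.

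In the control cells of the MS experiments Ccl2 was higher in CM-enriched cultures than in fibroblasts on the flexible plates. In the other controls it was not called: its probe-sets gave -0.01 and -0.50 (adjusted p = 1 and 0.654) in the IR and 1.60 and 1.40 (0.303 and 0.185) in the UV controls, and without fibroblast IR experiment 3 the former were 1.18 and 0.12 (0.209 and 1). The control cultures of the MS experiments read 3484, 4228 and 3066 in CM-enriched cultures (experiments 1 to 3) and 285, 171 and 82.2 in fibroblasts for X17053cds_s_at. The populations did not overlap, and the difference was 4.49 (SE 0.88, adjusted p = 0.00381) on the log2 scale, 22.4-fold (3 against 3 arrays). X17053mRNA_s_at gave 3.28 (SE 0.61, adjusted p = 0.00300). These CM-enriched cultures also held many non-myocytes, whose part in the difference was not tested. Together, 2 of 16 member probe-sets differed between the populations in the MS controls, where 22.5% of all probe-sets did, and the median difference over the members was 1.04 against 0 for all probe-sets. With experiments numbered 2 left out, both Ccl2 calls were lost (adjusted p = 0.137 and 0.107), at differences of 4.42 and 3.31. Cd80 was then called, at -1.13 (adjusted p = 0.0202), and with number 3 left out Il6 was called beside Ccl2, at 1.93 (adjusted p = 0.00888).

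In the sham-irradiated controls, Ptgs2 and Cd80 were lower in CM-enriched fractions than in fibroblasts. Ptgs2 (S67722_s_at) read 11.00, 28.5 and 27.9 in CM-enriched fractions and 53.7, 58.5 and 1565 in fibroblasts, a difference of -3.05 (SE 0.97, adjusted p = 0.0379). Cd80 read 6.88, 9.48 and 6.88 against 33.4, 10.3 and 34.3, a difference of -1.57 (SE 0.41, adjusted p = 0.0147), with 2 of the CM arrays at the floor. The groups did not overlap for either gene. These were 2 of 16 members, where 25.2% of all probe-sets differed. Leaving out experiments numbered 1 removed both calls (adjusted p = 0.176 for Ptgs2 and 0.304 for Cd80), leaving out number 2 removed that of Ptgs2 (0.146), and leaving out number 3 that of Cd80 (0.172). With the experiment number as a block shared by both populations neither was called (0.0546 for Ptgs2 and 0.0610 for Cd80).

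Without fibroblast IR experiment 3, more members differed between the controls, with smaller SEs (0.32 in place of 1.14 for Il1b, M98820_at, in the MS controls). In the IR controls 6 of 16 members then differed (27.1% of all probe-sets): Il1b by 2.30 and 2.58 in its probe-sets M98820_at and M98820_g_at, Cxcl2 by 2.32, Nos2 (U03699complete_seq_at) by 3.55 and Ccl3 by 4.14, all higher in CM-enriched fractions, and Ptgs2 (S67722_s_at) by -1.44. Cd80 gave -1.27 with an adjusted p of 0.0526. Other probe-sets of these genes were not called: Nos2 gave -0.13 by AF006619_s_at, 1.31 by S71597_s_at and 2.07 by U16359cds_at. Il1b gave 1.42 by E01884cds_s_at and Ptgs2 -1.24 by L25925_s_at. Ccl3 read 219, 167 and 424 in CM-enriched fractions, and 6.88, 29.3 and 512 in fibroblasts, where the last value is that of experiment 3. In the MS controls 5 members differed (26.4% of all), with Il6 (1.62), Il1b (1.06 for M98820_at) and Nos2 (2.53 for U03699complete_seq_at) added to both Ccl2 probe-sets, all higher in CM-enriched cultures. The other Nos2 probe-sets gave 0.41, 0.85 and 1.17 and the Il1b probe-set M98820_g_at 1.02, none of them called. Il1b by E01884cds_s_at and Il6 by M26745cds_s_at were at the floor in all of these MS controls. The UV controls gave 0 of 16 with limma, and 0 at an unadjusted p under 0.05, while 22.5% of all probe-sets differed. Without the experiment 2 of 16 differed (25.4% of all), Il1b (1.15 for M98820_at) and Ptgs2 (-1.15 for S67722_s_at). The Il1b probe-sets M98820_g_at and E01884cds_s_at then gave -0.06 and 0.006, and the Ptgs2 probe-set L25925_s_at -0.86 (adjusted p = 0.338).

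**Figure D2:**
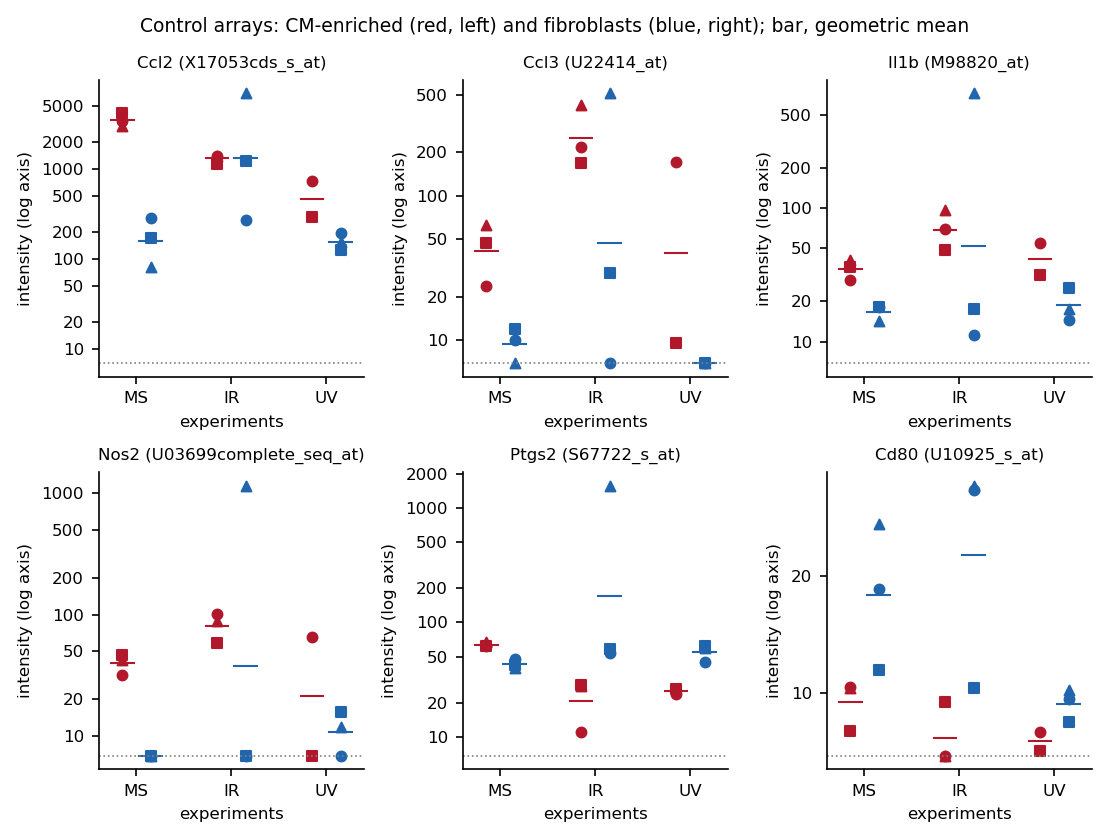
Normalised intensity (log axis) of Ccl2 (X17053cds_s_at), Ccl3, Il1b (M98820_at), Nos2 (U03699complete_seq_at), Ptgs2 (S67722_s_at) and Cd80 in control arrays of CM-enriched cultures or fractions and of fibroblasts, by stressor, each point 1 array. Ccl2 is higher in CM-enriched cultures in the MS controls. The fibroblast IR control of experiment 3 lies above the other fibroblast controls, though only slightly for Cd80.

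Members passed the test after UV and after neither of the other stressors; whether the stressors differed was not tested. In cultures of fibroblasts Cd80, Il6 and Ccl2 were up-regulated 24 h after UV, while none was called down-regulated. By the limma fit 4 of 16 member probe-sets rose and 0 fell, where 11.7% of all probe-sets rose and 11.2% fell (22.9% in either direction), so that the share of members called was near that of all probe-sets. The same 4 passed the level of 0.005 that the study used, beside 13.3% of all probe-sets. By the rule that at least 50% of the probe-sets of a gene must change, 3 of 8 genes were up-regulated, against 26.9% of all genes changed in either direction. The median change over the 16 members was 0.02, beside 0 over all probe-sets.

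Cd80 read 9.66, 8.40 and 10.1 in the control and 156, 105 and 186 in the UV-exposed cultures of experiments 1 to 3. Every exposed culture was above every control, and above all other arrays of the series. The change was 3.95 (SE 0.39, adjusted p = 1.02e-05) on the log2 scale, with a 95% interval of 3.11 to 4.79, or 15.5-fold. Il6 (M26744_at) read 6.88, 7.02 and 6.88 in control and 48.6, 35.7 and 50.4 in exposed cultures. With 2 of the 3 controls at the floor, the change of 2.68 (SE 0.24, adjusted p = 4.62e-06), 6.41-fold, depended on where the floor was set and ranged from 0.86 to 3.58 over the settings tried. The other Il6 probe-set, M26745cds_s_at, was at the floor in all 6 arrays and gave no information.

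Ccl2 rose in both of its probe-sets. X17053cds_s_at read 195, 126 and 153 in control and 945, 323 and 580.5 in exposed fibroblasts, a change of 1.85 (SE 0.31, adjusted p = 8.08e-04), or 3.62-fold. X17053mRNA_s_at read 406, 246 and 219.6 in control and 1918, 414 and 882 in exposed fibroblasts, a change of 1.67 (SE 0.30, adjusted p = 0.00133), or 3.17-fold. In both probe-sets all 3 pairs rose and the groups did not overlap, with the smallest rise in experiment 2. Exposed fibroblasts lay below the CM-enriched cultures of the MS experiments in X17053cds_s_at (3484, 4228 and 3066 in controls). They overlapped the CM-enriched fractions of the UV experiments, which read 296 to 744 in control and 517 to 1100 in exposed fractions.

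None of the other members of the fibroblast cultures was called after UV in the fit on all arrays, although Nos2 and Ptgs2 each had a probe-set that passed under other settings. The chemokines Ccl3 and Cxcl2 were at the floor in all 6 arrays. Il1b (M98820_at) read 14.6, 25.3 and 17.6 in control and 19.1, 23.2 and 21.8 in exposed cultures, which overlapped. Ptgs2 differed between its probe-sets: S67722_s_at overlapped, with 44.8, 62.7 and 60.1 in control and 71.9, 42.9 and 58.5 in exposed cultures, whereas L25925_s_at was higher in all exposed than in all control arrays (19.9, 27.5 and 33.2 against 35.1, 38.6 and 41.6), with a change of 0.54 (SE 0.37, adjusted p = 0.372); with a higher floor it was called at 0.44 (adjusted p = 0.0266). Nos2 read lower in all exposed than in all control cultures by AF006619_s_at (15.9, 9.51 and 15.3 against 6.88, 8.30 and 6.88), with a change of -0.85 (SE 0.34, adjusted p = 0.102). The difference was called with scaling only (-0.96, adjusted p = 0.0487) and without experiments numbered 2 (-1.18, 0.00428). By U03699complete_seq_at, Nos2 read 6.88, 15.7 and 11.7 in control and 15.7, 16.3 and 18.1 in exposed cultures. Counting these, 6 of 16 members did not overlap between exposed and control fibroblasts, beside 29.8% of all probe-sets.

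When the experiment number was not used as a block, Cd80 kept its call (adjusted p = 7.83e-08), while Il6 (0.190) and Ccl2 (0.213 and 0.126) lost theirs, and without experiments numbered 3 the Ccl2 probe-set X17053mRNA_s_at gave an adjusted p of 0.0691. Without fibroblast IR experiment 3 the same 4 probe-sets were called (22.5% of all). Other transcripts moved with the exposure: the summed signal of the 16 cardiomyocyte markers was 22003 to 25662 in control and 9270 to 13426 in exposed fibroblasts, that of 5 smooth muscle markers 6717 to 7578 and 3344 to 4651, and that of 13 fibroblast markers 40826 to 43737 and 32867 to 37861. The 14 macrophage markers summed to 419 to 476 in control and 511 to 587 in exposed cultures. Of these 2 were called higher, Cd14 (80.4 to 125 in control and 171 to 232 in exposed cultures) and Csf1r (6.88 to 7.73 and 9.15 to 18.9), and 0 lower, while Cd74 was at the floor in all 6 arrays. None of these 4 sums overlapped between control and exposed cultures, and their part in the result was not tested.

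**Figure D3:**
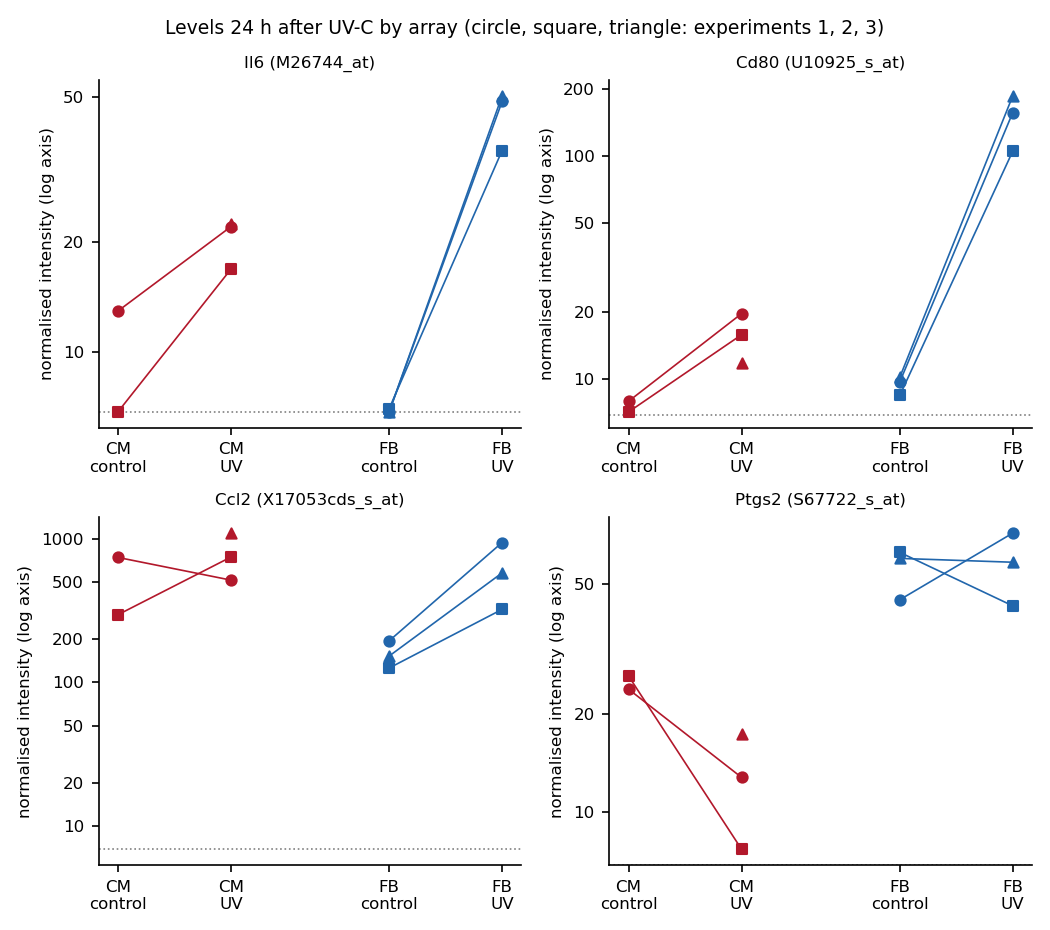
Normalised intensity (log axis) of Il6, Cd80, Ccl2 and Ptgs2 in control and UV-exposed CM-enriched fractions (red) and fibroblasts (blue), each point 1 array, lines joining control and exposed cells of an experiment, dotted line the floor of 6.88. Cd80, Il6 and Ccl2 rise in all 3 fibroblast pairs, and Ptgs2 (S67722_s_at) falls in both CM pairs.

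In CM-enriched fractions 2 of 16 member probe-sets changed after UV, 1 higher (Il6) and 1 lower (Ptgs2), where 8.62% of all probe-sets rose and 8.16% fell (16.8% in either direction), a share again near that of all probe-sets. The median change over the members was 0.39, beside 0 over all. This comparison rests on 2 pairs. Il6 (M26744_at) read 12.98 and 6.88 in the control fractions of experiments 1 and 2, and 22.1, 16.9 and 22.5 in the exposed fractions of experiments 1 to 3. The groups did not overlap, and the change was 1.03 (SE 0.29, adjusted p = 0.0287), with a 95% interval of 0.40 to 1.66. Ptgs2 (S67722_s_at) read 23.8 and 26.2 in control and 12.8, 7.69 and 17.3 in exposed fractions, again without overlap. It fell by 1.33 on the log2 scale (SE 0.33, adjusted p = 0.0158). Its other probe-set, L25925_s_at, read 8.24 and 25.7 in control and 16.8, 30.8 and 29.3 in exposed fractions and did not show the fall.

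Cd80 read 7.91 and 7.08 in control and 19.6, 15.7 and 11.8 in exposed fractions, with a change of 1.23 (SE 0.47, adjusted p = 0.0996), which did not pass. Ccl2 moved in opposite directions in the pairs: X17053cds_s_at read 744 and 296 in control fractions and 517, 748 and 1099.8 in exposed fractions, a change of 0.41 (SE 0.38, adjusted p = 0.592) with an interval of -0.43 to 1.24. Ccl3 followed the experiment more than the exposure, with 170.4 and 9.47 in control and 248, 6.88 and 37.4 in exposed fractions, and Nos2 (U03699complete_seq_at) likewise with 65.6 and 6.88 in control and 47.1, 15.99 and 22.2 in exposed fractions. In all, 4 of 16 members did not overlap between exposed and control fractions, beside 31.9% of all probe-sets.

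Both calls in the CM-enriched fractions depended on the arrays, the block and the floor. With 1 of the control fractions at the floor, the change of Il6 ranged from 0 with a higher floor to 1.89 with a lower one, and that of Ptgs2 was -0.09 with a higher floor, where neither was called. With experiments numbered 2 left out, 0 of 16 were called (adjusted p = 0.422 for Il6 and 0.263 for Ptgs2), and without the block 0 (0.793 and 0.743). Leaving out number 1 removed the call of Il6 (0.174) and leaving out number 3 that of Ptgs2 (0.0751). Without fibroblast IR experiment 3 the same 2 were called (15.9% of all). The 2 control fractions differed in other transcripts as well: the summed signal of 6 endothelial markers was 191 in the lower and 570 in the higher, and 166 to 221 in the exposed fractions, a difference whose part in these values was not tested.

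The change after UV differed between the populations for Il6 and Cd80. The change in CM-enriched fractions minus that in fibroblasts was -1.65 (SE 0.37, adjusted p = 0.0223) for Il6 and -2.72 (SE 0.61, adjusted p = 0.0206) for Cd80, 2 of 16 members, both smaller in CM-enriched fractions. Among all probe-sets 2.72% had a smaller value in CM-enriched fractions and 6.35% differed in either direction. For Ccl2 the difference was -1.45 (SE 0.49, adjusted p = 0.118) and -1.25 (SE 0.48, adjusted p = 0.162) in its probe-sets, and for Ptgs2 (S67722_s_at) -1.36 (SE 0.43, adjusted p = 0.0872), none of which passed. The Cd80 call held without the block (adjusted p = 0.0108) and that of Il6 did not (0.878). Without experiments numbered 1 neither member was called (0.174 for Cd80 and 0.357 for Il6). Leaving out number 2 removed these calls (0.0576 and 0.133) and gave Ccl2 instead (0.00510 and 0.0111), and leaving out number 3 removed that of Cd80 (0.159). Without fibroblast IR experiment 3 the same 2 members were called (5.77% of all). With dim probe-sets left out, Il6 and Cd80 were not tested. Ptgs2 (S67722_s_at) and Ccl2 (X17053cds_s_at) were then called lower (adjusted p = 0.0407 and 0.0327), where 268 of 5244 probe-sets were lower and 360 higher.

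**Figure D4:**
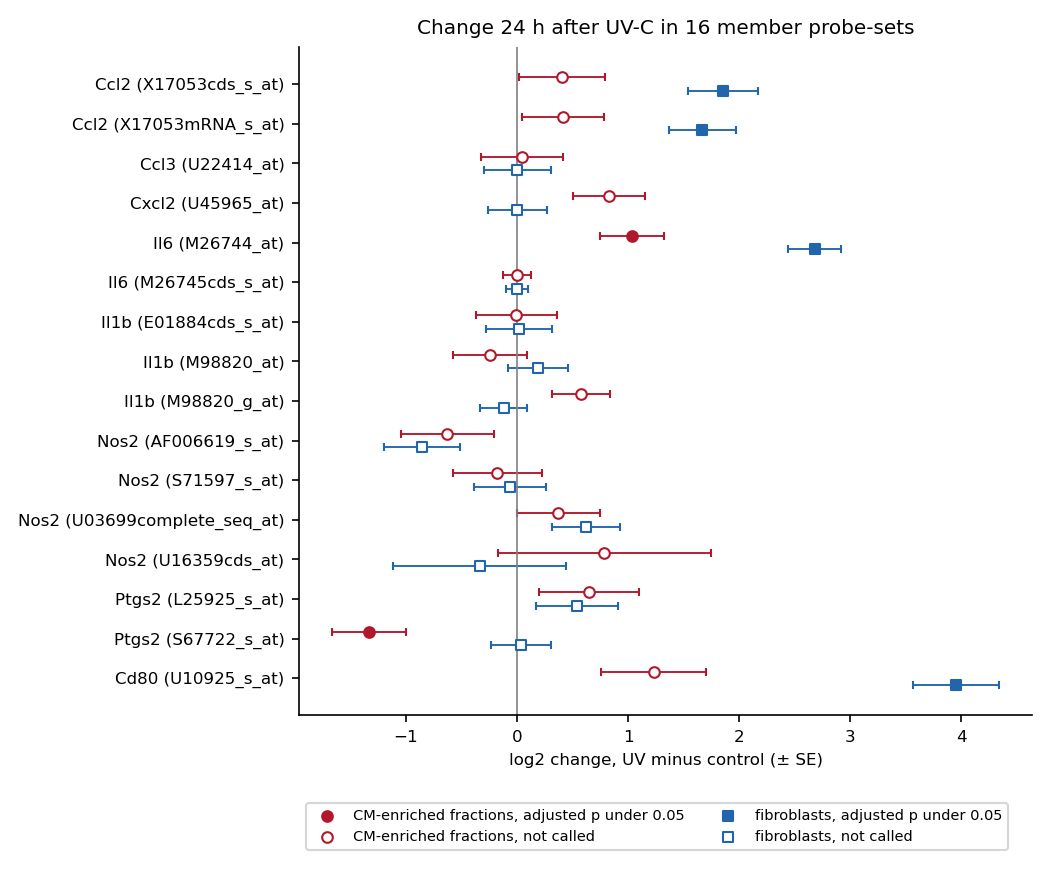
Change after UV (log2, exposed minus control, bars showing the SE) of the 16 member probe-sets in CM-enriched fractions and in fibroblasts. With the floor used, the 95% intervals (not drawn) of Cd80 (3.11 to 4.79) and Il6 (2.17 to 3.19) in fibroblasts lie entirely above 2. With a higher floor the changes were 2.56 for Cd80 and 0.86 for Il6.

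After X-rays no member passed the test in either population. In CM-enriched fractions limma called 0 of 16 (0.732% of all probe-sets), with 3 members at an unadjusted p under 0.05, where 11.4% of all probe-sets had such a value. Il6 (M26744_at) read 10.4, 6.88 and 14.2 in sham-irradiated and 18.2, 16.6 and 31.7 in irradiated fractions. It was higher in 3 of 3 pairs without overlap, with a change of 1.08 (SE 0.24, adjusted p = 0.0686). Cd80 read 6.88, 9.48 and 6.88 in sham-irradiated and 16.9, 22.3 and 12.1 in irradiated fractions, also higher in 3 of 3 pairs without overlap, with a change of 1.11 (SE 0.39, adjusted p = 0.278). The third was the Il1b probe-set E01884cds_s_at with 0.96 (SE 0.30, adjusted p = 0.220). These 2 of 16 members without overlap stood beside 8.46% of all probe-sets. The median change was 0.14. Ccl2 by X17053cds_s_at was close to its controls, with 1420.3, 1140.3 and 1416 in sham-irradiated and 1452, 1285 and 1208 in irradiated fractions. Its other probe-set, X17053mRNA_s_at, changed by 0.30 (adjusted p = 0.836). Further members moved more without being called. Nos2 changed by -0.86 in U16359cds_at (adjusted p = 0.803) and by 0.51 in U03699complete_seq_at (0.588), and Il1b by 0.49 in M98820_at (0.552). The irradiated sample of experiment 3 was scanned apart from the other 5 arrays. With the scan as a block 0 members were called. All 3 sham-irradiated arrays were of 1 lot and 2 of the 3 irradiated arrays of another, so that lot nearly coincided with irradiation, and with the lot as a block the comparison rested on the pair of experiment 2 alone. Limma also called 0 of 16 when fibroblast IR experiment 3 was left out (0.698% of all).

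In irradiated fibroblasts limma called 0 of 16 (0.0801% of all probe-sets), with 2 members at an unadjusted p under 0.05 against 6.85% of all. Irradiated and control arrays were without overlap in 0 of 16 members (4.59% of all). The nominal changes were those of Nos2 (U16359cds_at, 1.75, SE 0.78, adjusted p = 0.713) and Cd80, which read 33.4, 10.3 and 34.3 in sham-irradiated and 29.4, 67.1 and 73.00 in irradiated cultures and was higher in 2 of 3 pairs (1.20, SE 0.39, adjusted p = 0.515). Il6 (M26744_at) was higher in 3 of 3 pairs, with 12.4, 12.3 and 954 in sham-irradiated and 17.6, 15.7 and 1495 in irradiated cultures, where experiment 3 gave the high values in both arms (0.50, SE 0.24, adjusted p = 0.746). Without that experiment, 0 of 16 were called as well (0.355% of all), with 1.26 for Cd80, 2.46 for Nos2 (U16359cds_at) and 0.43 for Il6. The difference between the populations in the change after IR was called for 0 of 16 (0.0686% of all), with 3 at an unadjusted p under 0.05, and for 0 of 16 without the experiment (0.0229% of all).

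After MS no member passed the test in either population, and neither did any other probe-set of the array: limma called 0 of 16 in CM-enriched cultures (0% of all) and 0 of 16 in fibroblasts (0% of all). At an unadjusted p under 0.05 there were 0 members in CM-enriched cultures (4.74% of all) and 2 in fibroblasts (5.35% of all). Ccl2, whose signal was high in these cultures, read 3484, 4228 and 3066 in control and 3226, 3262 and 3651 in stretched CM-enriched cultures, with an interval of -0.76 to 0.60 for the change. In fibroblasts the nominal changes were Ptgs2 (L25925_s_at), with 19.5, 6.88 and 19.5 in control and 28.6, 35.5 and 22.9 in stretched cultures (1.05, SE 0.37, adjusted p = 0.857, 3 of 3 pairs higher), and Il1b (M98820_at), with 18.05, 18.1 and 14.3 in control and 6.88, 10.2 and 13.4 in stretched cultures (-0.77, SE 0.27, adjusted p = 0.857, higher in 0 of 3 pairs). In the same fibroblasts the Ptgs2 probe-set S67722_s_at changed by 0.07 and the Il1b probe-set M98820_g_at by 0.18. Groups did not overlap for 0 of 16 members in CM-enriched cultures (7.01% of all probe-sets) and 2 of 16 in fibroblasts (5.15%). The difference between the populations was called for 0 of 16 (0% of all), with 1 at an unadjusted p under 0.05. These 3 counts were 0 as well without fibroblast IR experiment 3 (0% of all probe-sets in CM-enriched cultures, and 0.0114% in fibroblasts and for the difference).

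**Figure D5:**
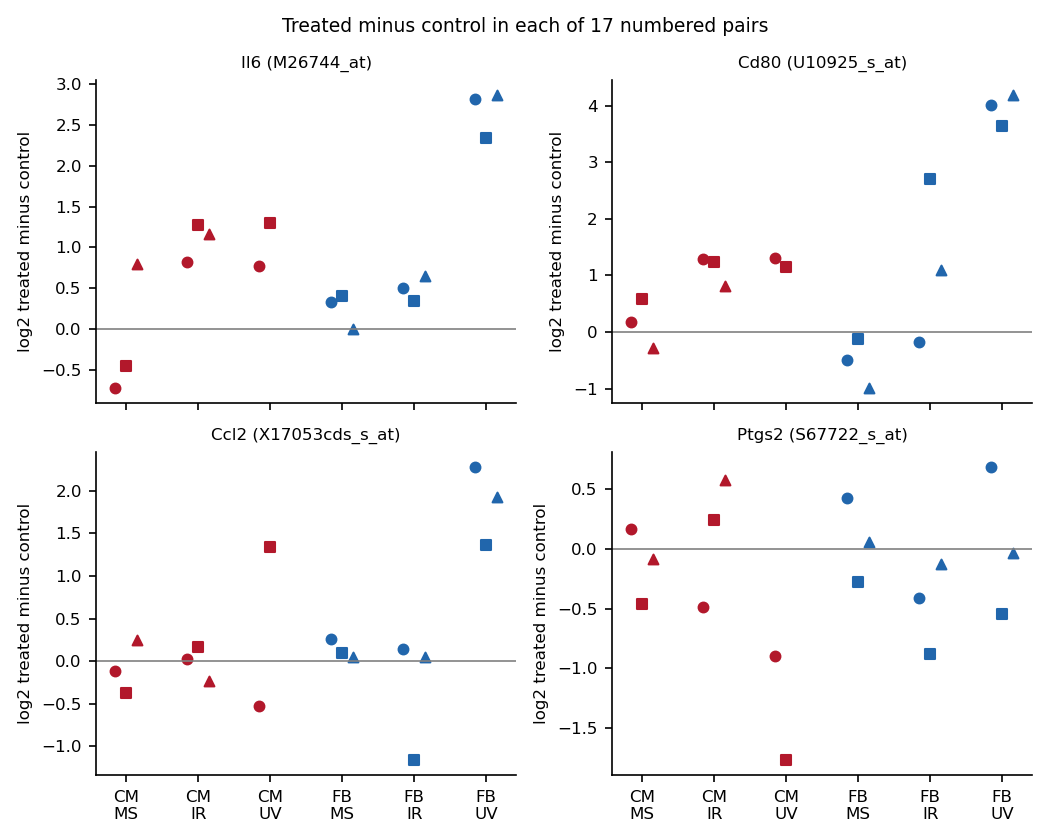
Treated minus control (log2 of normalised intensity) of Il6 (M26744_at), Cd80, Ccl2 (X17053cds_s_at) and Ptgs2 (S67722_s_at) in each of the 17 numbered pairs, by population and stressor. Cd80, Il6 and Ccl2 rise in all pairs of UV-exposed fibroblasts. Cd80 and Il6 also rise, by less, in all pairs of CM-enriched fractions after UV and after IR, and Ptgs2 falls in both CM pairs after UV.

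The wider lists gave the setting of these changes. Of the 138 related genes on the array, 20 were up-regulated and 15 down-regulated in fibroblasts after UV, and 7 and 15 in CM-enriched fractions, where 11.7% and 11.2%, and 8.62% and 8.16%, of all probe-sets were. MS called 0 of them in either population, and IR called 0 in fibroblasts and 1 in CM-enriched fractions, the interleukin-1 receptor Il1r1 (-1.63, adjusted p = 0.0153). With fibroblast IR experiment 3 left out, the counts were 20 and 15 in fibroblasts and 6 and 17 in CM-enriched fractions after UV, and Cx3cl1 was called in irradiated fibroblasts (-0.91, adjusted p = 0.0434). By group, UV-exposed fibroblasts had 4 higher and 2 lower of 13 NF-kB, Toll-like receptor and STAT3 genes, 3 and 1 of 13 co-stimulation and adhesion genes, 3 and 1 of 21 chemokines and receptors, 3 and 2 of 22 cytokine receptors, 4 and 3 of 18 nitric oxide and arginine genes, 2 and 4 of 24 prostanoid genes, and 1 and 2 of 27 cytokines. The median changes of these lists lay between -0.09 and 0.19, beside 0 for all probe-sets.

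Within these lists, the 6 genes with the smallest adjusted p in UV-exposed fibroblasts were Gucy1a1, a subunit of the nitric oxide receptor guanylate cyclase (-1.99, adjusted p = 1.07e-07), Ddah1, which degrades inhibitors of nitric oxide synthase (-1.60, 5.21e-07), Pla2g4a, which releases arachidonic acid for cyclooxygenases (-1.77, 2.80e-06), Nfkb1 (-1.07, 1.09e-05), the leukocyte adhesion molecule Icam1 (1.12, 1.37e-05) and Lta4h of leukotriene synthesis (0.50, 2.86e-05). In CM-enriched fractions they were Pla2g4a (-2.17, 1.15e-05), the haem-degrading enzyme Hmox1 (1.80, 2.93e-05), Lta4h (-0.69, 3.85e-05), Nfkb1 (-0.99, 2.73e-04), Tnfrsf11b, a decoy receptor (-2.48, 3.05e-04), and the chemokine Cx3cl1 (1.65, 4.53e-04). Pla2g4a and Nfkb1 thus fell in both populations. The change differed between the populations for Lta4h (-1.19, 2.04e-05), the chemokine scavenger Ackr3 (-3.23, 0.00114), the arginine-consuming enzyme Arg1 (-4.12, 0.00152), Gucy1a1 (1.19, 0.00188), Ddah1 (0.79, 0.0157) and Il6st, the signalling receptor of IL-6 (1.01, 0.020), given as CM-enriched fractions minus fibroblasts.

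Across the 17 numbered pairs, the treated-minus-control differences of Il6 (M26744_at) were most like those of Dgka (Pearson r = 0.916), Fst (0.908) and Icam1 (0.898), among probe-sets in the upper 50% by mean signal. Those of Cd80 were most like Abcb1b (0.902), Fst (0.895) and Cdkn1a (0.878), and those of Ccl2 (X17053mRNA_s_at) most like Cited2 (0.907), Psme1 (0.905) and Dynlt1 (0.895). Ptgs2 (S67722_s_at) had weaker likeness, with Fdps at 0.791, Gnao1 at 0.751 and Slc2a1 at 0.748. The pairs share their arrays between genes and hold the UV pairs, in which many transcripts changed at once, so these coefficients are a description. Over the 16 pairs without fibroblast IR experiment 3, those named for Il6, Cd80 and Ccl2 lay between 0.889 and 0.915 and those for Ptgs2 were at most 0.792.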

How the data were processed

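RNA from 35 cultures or fractions was hybridised to RG-U34A arrays. The deposited values were intensities, 1 linear value per probe-set and array, which the authors had scaled array by array: trimmed means lay between 200.33 and 200.38 for 26 arrays and between 1001.5 and 1001.7 for the remaining 9; the software behind them was not given in the sources used here, and the authors' own tests used probe signals. Deposited scan records, 16 in number, served only for array lot and scan.

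Here 59 control probe-sets were left out of 8799. Each array was divided by its 75th percentile and brought to a common scale, values below the 20th percentile of all scaled values were set to it (6.88), and log2 values were quantile normalised. Differences were fitted with limma 3.58.1 (lmFit, eBayes with trend, R 4.3.3, statmod 1.5.0) on all 35 arrays, blocking on the numbered experiment of each population and stressor, which left 11 residual degrees of freedom, two-sided, and p-values were adjusted by Benjamini-Hochberg over 8740 probe-sets (threshold 0.05). Control levels were compared by group means of the 17 control arrays. The number of arrays limits the precision.

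The block follows the experiment term of the study's model; titles lacking a number were read as experiment 1. Same-numbered arrays deviated together (r over 0.1) in 15 of 17 pairs (0.0628 to 0.797), and in 6 of 6 pairs with numbered scan records the numbers matched.

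Symbols came from the platform annotation: 7006 probe-sets had 1 symbol, 308 several and 1426 none, and 6985 were updated by gene number. The members, the pathway and marker lists and the tests were chosen with earlier results of these data known. Named were all members, up to 6 called list genes per treated-control comparison and per difference between the populations, the 3 genes most like each called member, and defining markers; further genes of fibroblast IR experiment 3 were named after their values were seen. The scripts were tested on simulated data. Alternatives changed the block, normalisation, floor, filter, arrays and threshold.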

Additional observations from a re-analysis of the deposited data

Results flagged for a closer look

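The change after UV differed between the populations for Il6 and Cd80 by the interaction contrast of the limma fit. For Il6 (M26744_at) the change in CM-enriched fractions minus that in fibroblasts was -1.65 (adjusted p = 0.0223), where the changes themselves were 1.03 and 2.68. For Cd80 it was -2.72 (adjusted p = 0.0206), from changes of 1.23 and 3.95. In both cases every pair rose in both populations, 2 of 2 pairs in CM-enriched fractions and 3 of 3 in fibroblasts, so the difference lay in the size of the rise. Il6 lay at the floor in 1 of 2 CM control fractions and in 2 of 3 fibroblast controls.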

How the results depend on the processing

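The 44 single differences that were called, or at least 1 on the log2 scale in either direction, were followed, a choice that favours keeping direction. Of 18 alternatives, 12 to 15 applied to each. In none of these did 42 of the 44 reverse, though 3 of the 42 (Il6 and Cd80 in UV-exposed and Cd80 in irradiated CM-enriched fractions) were 0 with a higher floor. Of 12 that were called only Cd80 in UV-exposed fibroblasts was called in every setting that could be fitted (adjusted p 3.71e-09 to 0.0367). In UV-exposed fibroblasts (4 members called), 1 was called with no replicate block, 2 with dim probe-sets left out (where fewer members were tested) and 2 on the comparison's own arrays; 5 were called with scaling only (Nos2 AF006619_s_at falling in addition) or a higher floor (Ptgs2 L25925_s_at rising in addition), and 3 to 5 when a replicate was left out. In UV-exposed CM-enriched fractions (2 called), the count was 0 with no replicate block, a random replicate block, a pseudocount in place of the floor, a higher floor, the comparison's own arrays or the study's threshold, 1 with scaling only or dim probe-sets left out, and 0 to 1 when a replicate was left out. The difference between the populations after UV (2 called) gave 1 with no replicate block, a random replicate block, a pseudocount or a lower floor, 0 on own arrays or at the study's threshold, and 0 to 2 when a replicate was left out. With dim probe-sets left out it gave 2 other members, Ptgs2 (S67722_s_at) and Ccl2 (X17053cds_s_at), since Il6 and Cd80 were not tested there. After IR in CM-enriched fractions (0 called), the array lot as a block gave 2, resting on 1 pair. In the controls, those of MS (2 called) gave 1 to 3 when a replicate was left out. Those of IR (2 called) gave 0 with a replicate block shared by both populations, 1 with a higher floor, 0 at the study's threshold and 0 to 5 when a replicate was left out. An alternative chosen after seeing the data, without fibroblast IR experiment 3, gave 5 in the MS, 6 in the IR and 2 in the UV controls (0 called).

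Direction turned in the IR controls for Il6 M26745cds_s_at (-1.52), which ranged from -2.60 to 0.32 when a replicate was left out (0.32 without experiments numbered 3) and gave 0.21 without fibroblast IR experiment 3, and for Nos2 U03699complete_seq_at (1.09), which gave -0.13 with a higher floor and -0.31 to 3.48 when a replicate was left out (-0.31 without experiments numbered 1); apart from the arrays left out, the cause was not tested. The replicate block changed no other count of calls. With 2 or 3 pairs per comparison and many members near the floor, a change that was not called was not shown to be absent.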

Other observations

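Outside the members and the lists, further genes read more than 4-fold higher in both arrays of fibroblast IR experiment 3 than in all other fibroblast arrays, and were named after their values were seen. Complement C3 (M29866_s_at) read at least 547 where the other fibroblast arrays were at the floor. The plasminogen activator inhibitor Serpinb2 read at least 884 against at most 20.8, and the matrix metalloproteinases Mmp9, Mmp3 and Mmp13 at least 292, 266 and 110.2 against at most 18.9, 27.4 and 12.3. The kinase Jak2, by U13396_at, read at least 793 against at most 70.6. The hypoxia-responsive genes Egln3 and Hk2 read at least 971 (rc_AA799678_s_at) and 895 against at most 49.0 and 94.9. In all, 85 of 8740 probe-sets showed such a gap, 13 of them members. The Spearman correlation of these arrays with the other fibroblast IR arrays was 0.922 to 0.931, that among the others at least 0.96, and that between the pair 0.978. No scan record of this experiment was analysed here.

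In the controls, the 138 related genes gave 17 higher and 7 lower in CM-enriched cultures than in fibroblasts in the MS experiments, 9 and 20 in the IR experiments and 12 and 15 in the UV experiments, where 10.3% and 12.2%, 12.2% and 13.0%, and 10.6% and 11.9% of all probe-sets were higher and lower. Without fibroblast IR experiment 3 the counts were 26 and 9, 19 and 21, and 16 and 21. The prostaglandin F receptor Ptgfr was higher in CM-enriched cells in each (2.00, 2.88 and 2.53 on the log2 scale), and the Toll-like receptor Tlr4 lower in each (-1.29, -1.55 and -1.95); in the IR controls these were 2.96 and -1.65 without that experiment.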
